A study of Mus musculus with 8 samples.

Results

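The enzymes of methionine and sulfur amino acid metabolism examined here were Mat1a, Gnmt, Ahcy, Bhmt, Bhmt2, Cbs, Cth, Cdo1 and Csad, chosen by name from a list of 10 genes. Every probe set annotated to one of these genes alone was taken, which gave 11 probe sets for 9 genes, out of 45101 probe sets on the array and 18193 genes with such a probe set. Mat2a, the tenth gene of the list, was not analysed here. Expression had been measured on 8 Affymetrix mouse arrays. The 4 arrays labelled Bmi1 came from Dlk-positive hepatoblasts, the common precursors of hepatocytes and bile duct cells, that had been transduced with Bmi1, a member of Polycomb repressive complex 1. The 4 arrays labelled Control came from such cells transduced with EGFP. All cells, those of the controls included, were Ink4a-Arf-null, were taken from fetal liver at embryonic day 14.5 and were kept in medium with 2 growth factors, HGF (50 ng/ml) and EGF (20 ng/ml). Transduced cells were purified by flow cytometry on day 28 of culture, and RNA equivalent to 10000 cells was amplified in 2 cycles before hybridisation. The sources used here do not name the vector or promoter that drove either gene.

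Methionine is activated to S-adenosylmethionine, the methyl donor of most cellular methylation reactions, and the liver is the main site of this conversion in the body. After the methyl group is given away, S-adenosylhomocysteine remains and is split to homocysteine. Homocysteine is either methylated back to methionine, in liver also with betaine as the donor, or passed by transsulfuration to cysteine, from which glutathione and taurine are made. Several of these enzymes are abundant in hepatocytes and scarce in most other cells.

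Bmi1 itself, the introduced gene, read 197 to 328 in the arrays labelled Bmi1 and 306 to 802 in the arrays labelled Control at its brighter probe set. Taking arrays of equal replicate number as pairs, both of its probe sets had the lower signal under the label Bmi1 in 4 of 4. Whether their probes lie inside the introduced sequence is not stated in those sources, so directions are given as labelled. Replicates 3 and 4 differed from replicates 1 and 2, with 24.3% of the 10916 tested genes past the limma threshold for that difference. The spiked control BioC-3 read 97.0 to 119 on replicates 3 and 4 and 198 to 274 on replicates 1 and 2. The ratio of the 3′ to the 5′ probe set of Gapdh, a sign of RNA integrity, was 3.10 on replicate 1 labelled Control and 1.65 to 1.96 on the other 7 arrays. The part of either in the results was not tested, and results without pair 1 are given with the pairs. The replicate numbers were treated as pairs because the deviations of same-numbered arrays from their group means correlated at 0.49 to 0.68. Values are given from limma without a block and with the replicate number as a block.

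Hepatoblast markers were present on every array. The summed signal of 8 hepatoblast and hepatocyte markers was 21783 to 34655 in the arrays labelled Bmi1 and 23158 to 35069 in the arrays labelled Control. The sum was lower in 3 of 4 pairs, 6 of the 8 had a lower mean, and 0 of the 8 passed limma with or without the block. Dlk1 was higher under the label Bmi1 in every pair (log2 difference 0.80), and Apoa1 was lower in every pair (-0.51). Markers of other cell types moved with the labels in part. All 9 fibroblast and stellate markers had a lower mean in the arrays labelled Bmi1, and 1 of them, Acta2, passed with the block. Their sums were 3566 to 7724 there and 4809 to 14830 in the arrays labelled Control, lower in 4 of 4 pairs. Single markers varied by pair. In pair 4, Col1a1 read 26.2 labelled Bmi1 and 9.70 labelled Control, Col1a2 174 and 54.9, and Col3a1 86.3 and 19.2. The other markers of the list were lower in that pair. Replicate 1 labelled Control held the highest collagen signals, with 3343 for Col1a2 and 2300 for Col3a1. All 6 macrophage and leukocyte markers had a lower mean, with sums of 665 to 2476 against 532 to 2796, and so had all 3 mesothelial markers, with sums of 38.9 to 131 against 91.5 to 274, of which Msln passed with the block. None of the 4 bile duct markers was lower, and their sums were 2483 to 3085 in the arrays labelled Bmi1 and 1441 to 2457 in the arrays labelled Control, with Epcam passing as higher with the block. Endothelial sums were 23.5 to 47.3 against 31.5 to 54.3 and erythroid sums 5.12 to 12.5 against 4.69 to 37.2, with Pecam1, Tek and Alas2 below background on all 8 arrays. What these other cells add to the differences below was not tested.

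In the planned main model, without the block, 0 of the 9 enzymes passed in limma, where 0.165% of all genes did and 0.055% did as lower. In the same model 7 of the 9 were lower at an unadjusted p under 0.05, as were 4.33% of all genes, with 7.81% in either direction. With the replicate block, 6 of the 9 fell in the arrays labelled Bmi1: Bhmt, Mat1a, Bhmt2, Cdo1, Cth and Csad. Their log2 differences ran from -2.58 for Bhmt to -0.93 for Csad. Over all tested genes 3.33% passed in the blocked model, and 1.96% passed as lower. All 9 enzymes had a lower mean in the arrays labelled Bmi1, as had 54.3% of all tested genes. Of the 9, 6 were lower by more than 2-fold, as were 2.47% of all genes. The median log2 difference of the 9 was -1.24, and that of all tested genes was -0.03. All 9 passed the level filter. With every probe set of the array tested by itself, 4 of the 11 passed with the block, all lower (Bhmt, Mat1a, Cdo1 and 1 of Bhmt2), as did 0.879% of all probe sets in either direction and 0.34% as lower. Without the block 0 of the 11 passed in that limma fit, where 0.0244% of all probe sets did and 0.0155% did as lower. At an unadjusted p under 0.05, 8 of the 11 were lower in that fit, as were 1.81% of all probe sets, with 4.23% in either direction. In bulk samples, fewer cells of a type and less RNA per cell cannot be told apart.

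**Figure D1:**
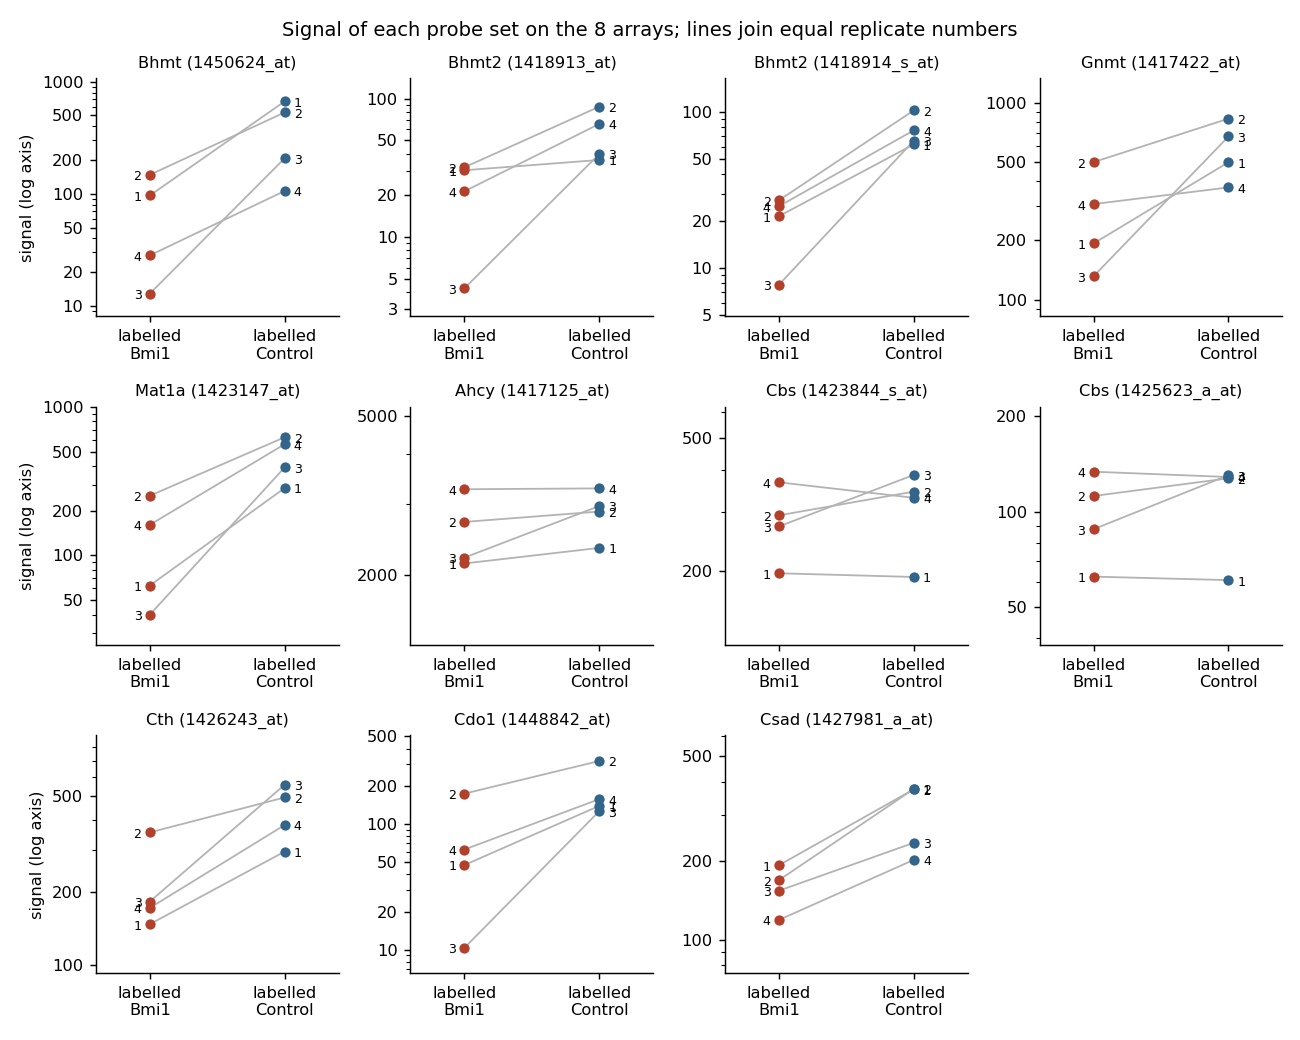
Signal of the 11 probe sets on each array, on log axes that differ between panels, with arrays labelled Bmi1 on the left and arrays labelled Control on the right. Points carry their replicate number and lines join equal numbers. The Mat1a points span 39.9 to 253 on the left and 285 to 627 on the right. The points of both labels overlap for Bhmt, Gnmt, Ahcy, Cbs, Cth and Cdo1.

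The plot of signals by array holds the signals of each enzyme by label and replicate. Levels of different genes in it are not comparable with each other, since each probe set has its own brightness.

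Mat1a encodes the methionine adenosyltransferase of adult liver, which makes S-adenosylmethionine. Its signal was 62.8, 253, 39.9 and 161 in replicates 1 to 4 labelled Bmi1, against 285, 627, 393 and 562 in replicates 1 to 4 labelled Control. All 4 arrays labelled Bmi1 lay below all 4 arrays labelled Control. The means were 129 ± 97.7 and 467 ± 156 (SD, n = 4 each). On the log2 scale Mat1a differed by -2.17 (SE 0.28 with the block), and the limma adjusted p was 0.0119 with the block and 0.19 without. With the block, a fall of this gene passed in limma whichever pair of arrays was left out.

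Gnmt encodes glycine N-methyltransferase, a liver enzyme that spends S-adenosylmethionine on glycine and so keeps its level in check. It read 193, 499, 131 and 305 in the arrays labelled Bmi1, against 498, 828, 673 and 371 in the arrays labelled Control. Every pair was lower in the array labelled Bmi1, but the groups overlapped, since replicate 2 labelled Bmi1 was above replicates 1 and 4 labelled Control. Its log2 difference was -1.24 (SE 0.30 with the block), and Gnmt missed the threshold in limma, with an adjusted p of 0.0708 with the block and 0.383 without. Its difference was uneven across pairs, from -0.31 in pair 4 to -2.41 in pair 3. Without pair 4 it passed with the block (adjusted p = 0.0472).

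Ahcy encodes adenosylhomocysteinase, which splits S-adenosylhomocysteine to homocysteine and adenosine in nearly all cells. It read 2132, 2709, 2205 and 3271 in the arrays labelled Bmi1, against 2332, 2876, 2969.9 and 3288 in the arrays labelled Control. The groups overlapped over most of their range. Ahcy differed by -0.24 on the log2 scale, with a 95% interval of -0.45 to -0.02 with the block and -0.56 to 0.09 without, and the limma adjusted p was 0.242 and 0.832. The value of Mat1a, -2.17, lies outside both intervals.

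Bhmt encodes betaine-homocysteine methyltransferase, which returns homocysteine to methionine with betaine as the donor and is a major protein of mature hepatocytes. It showed the largest log2 difference of the 9. Its signal was 96.6, 148, 12.9 and 28.2 in replicates 1 to 4 labelled Bmi1, against 668, 532, 208 and 106 in replicates 1 to 4 labelled Control. The arrays labelled Control spanned 6.30-fold, and replicate 2 labelled Bmi1 lay above replicate 4 labelled Control, so the groups overlapped. Within pairs the signal labelled Control was 6.91, 3.60, 16.1 and 3.76 times the signal labelled Bmi1. Its log2 difference of -2.58 came with an SE of 0.80 without the block and 0.31 with it. The limma adjusted p was 0.327 without the block and 0.0109 with it.

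Bhmt also differed between the replicate sets. Replicates 3 and 4 minus replicates 1 and 2 gave a log2 difference of -2.30 (limma adjusted p = 0.00272), near in size to that between the groups. The group difference was -2.37 within replicates 1 and 2 and -2.78 within replicates 3 and 4. With the replicate set as a block in place of the replicate number, 3 of the 9 passed as lower, Bhmt (limma adjusted p = 0.00926), Bhmt2 (0.0230) and Csad (0.0250). In that model 1.81% of all genes passed, 0.944% as lower and 0.87% as higher. Of the other 8 enzymes, Csad alone passed for the difference between replicate sets (-0.69, adjusted p = 0.0145). Thus 2 of the 9 passed for it, beside 24.3% of all genes.

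Bhmt2 encodes a related methyltransferase that takes its methyl group from S-methylmethionine. Its brighter probe set, the one tested, is of a type that can match more than 1 transcript. It read 21.5, 27.2, 7.84 and 24.9 in the arrays labelled Bmi1, against 62.2, 103, 65.7 and 76.5 in the arrays labelled Control. The groups did not overlap. Bhmt2 differed by -1.88 on the log2 scale (SE 0.25 with the block), with a limma adjusted p of 0.0127 with the block and 0.0938 without. The other probe set read 30.4, 31.9, 4.26 and 21.4 in the arrays labelled Bmi1, against 36.1, 87.8, 39.9 and 65.9 in the arrays labelled Control. It also had groups that did not overlap, but in pair 1 it differed little. With every probe set of the array tested by itself, it missed the threshold (limma adjusted p = 0.0853 with the block), while the brighter one passed (0.00761).

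Bhmt and Bhmt2 are neighbours on mouse chromosome 13 in the RefSeq annotation of GRCm38.p6. Upstream of Bhmt2, on the opposite strand, starts Dmgdh, the dehydrogenase of dimethylglycine, which is the other product of the Bhmt reaction. RefSeq promoter windows were matched for 6 of the 9 enzymes and not for Mat1a, Cth and Cdo1. The sequences of 3 are shown, Bhmt as the member with the largest difference, Bhmt2 as its neighbour and Cbs as a member without a detected change. Each is written 5′ to 3′ on the strand of the gene and ends at the base before an annotated start. CpG dinucleotides, the sites of DNA methylation in mammals, are in capitals. Bhmt covers chr13:93637759-93638008, Bhmt2 covers chr13:93674303-93674435 as the bases between its start and that of Dmgdh, and Cbs covers chr17:31637206-31637455, all on the minus strand. The annotated Cbs gene runs to base 31637233, so its window lies before an inner start and its last bases lie within the gene.
Bhmt: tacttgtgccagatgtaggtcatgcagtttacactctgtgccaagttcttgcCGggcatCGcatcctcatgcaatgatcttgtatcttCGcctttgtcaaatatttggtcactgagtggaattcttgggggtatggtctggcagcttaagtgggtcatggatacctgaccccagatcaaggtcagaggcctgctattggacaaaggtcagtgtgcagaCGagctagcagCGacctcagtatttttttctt
Bhmt2: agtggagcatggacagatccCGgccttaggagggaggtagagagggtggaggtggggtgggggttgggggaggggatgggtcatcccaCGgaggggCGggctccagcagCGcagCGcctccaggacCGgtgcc
Cbs: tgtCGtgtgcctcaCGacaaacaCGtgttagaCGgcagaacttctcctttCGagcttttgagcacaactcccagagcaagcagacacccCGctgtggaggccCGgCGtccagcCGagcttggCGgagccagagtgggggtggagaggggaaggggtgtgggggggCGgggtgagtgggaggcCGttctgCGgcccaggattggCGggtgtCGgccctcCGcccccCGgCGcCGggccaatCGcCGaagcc

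The 133 bases shown for Bhmt2 held 6 CpG dinucleotides. In the 250 bases before the start, Bhmt held 5 CpG dinucleotides and Cbs held 21, beside a median of 6 over 32851 promoter windows of the same length. Gnmt held 6, also before an inner start, and Ahcy held 9. Bhmt2 held 20 in a window that runs into Dmgdh. Csad held 4 and 5 at its 2 annotated starts. The 4 lie before an inner start, in a window wholly within the annotated Csad gene. The 5 lie in a window that overlaps another gene, Zfp740. In all, 6 short motifs were searched on both strands. CCAAT was present in 5 of the 6 enzymes, all but Bhmt2, as in 33.8% of all windows, and GGGCGG in 4, namely Ahcy, Bhmt2, Cbs and Csad, as in 32.7%. An enzyme was counted when any of its windows held the motif, while the shares over all windows count each window by itself. Csad held CCAAT only in its window that overlaps Zfp740 and GGGCGG only in its other window. TATAAA, the TATA box, was in 0 of the 6 and in 12.4% of all windows. CAAAGTCCA, a form of the HNF4 site, GTTAAT, one arm of the HNF1 site, and TTGCGCAA, a C/EBP site, were also in 0 of the 6. Over all windows they were in 0.384%, 6.43% and 0.164% in that order. Only exact matches to the letters given were counted. Other forms of these sites were not searched, so these counts do not show that such sites are absent.

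Cbs encodes cystathionine beta-synthase, which commits homocysteine to transsulfuration. Its brighter probe set read 196, 293, 272 and 369 in the arrays labelled Bmi1, against 191, 346, 388 and 331 in the arrays labelled Control. For Cbs the log2 difference was -0.21, with a 95% interval of -0.55 to 0.12 with the block and -0.75 to 0.33 without, and the limma adjusted p was 0.492 and 0.954. The dimmer probe set read 62.5, 112, 88.1 and 134 in the arrays labelled Bmi1, against 60.9, 127, 130.4 and 129 in the arrays labelled Control. Replicate 1 was the lowest of its group in both groups and at both probe sets, and the groups overlapped over most of their range. No difference of Cbs was detectable with these arrays.

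Cth encodes cystathionine gamma-lyase, which releases cysteine in the next step. It read 148, 355, 183 and 173 in the arrays labelled Bmi1, against 296, 495, 559.7 and 381 in the arrays labelled Control. Each pair was lower in the array labelled Bmi1, and the groups overlapped through replicate 2 labelled Bmi1 alone. Cth differed by -1.12 on the log2 scale (SE 0.18 with the block), with a limma adjusted p of 0.0197 with the block and 0.232 without. This call rested on 4 pairs, since the adjusted p was 0.0595, 0.0602 and 0.0614 without pair 1, 3 or 4.

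Cdo1 encodes cysteine dioxygenase, which oxidises cysteine to its sulfinic acid. It read 47.1, 175, 10.3 and 62.7 in the arrays labelled Bmi1, against 139.7, 318, 127 and 158 in the arrays labelled Control. Replicate 2 was the highest of its group in both groups, and replicate 2 labelled Bmi1 lay above 3 of the 4 arrays labelled Control. Cdo1 differed by -1.78 on the log2 scale (SE 0.35 with the block), with a limma adjusted p of 0.0391 with the block and 0.513 without. Without the block, leaving out replicate 3 labelled Bmi1 took its log2 difference to -1.12. With the block the call was lost without pair 1 (0.0982), pair 2 (0.0598) or pair 4 (0.0706).

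Csad encodes cysteine sulfinic acid decarboxylase, which leads on to hypotaurine and taurine. It read 192, 169, 154 and 119 in the arrays labelled Bmi1, against 375, 376, 234 and 202 in the arrays labelled Control. The groups did not overlap, and the pair differences were the most even among the 6 enzymes that fell with the block, from -0.68 to -1.22. Csad differed by -0.93 on the log2 scale (SE 0.14 with the block), with a limma adjusted p of 0.0164 with the block and 0.301 without. It was 0.0526 without pair 1 and 0.0641 without pair 2.

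**Figure D2:**
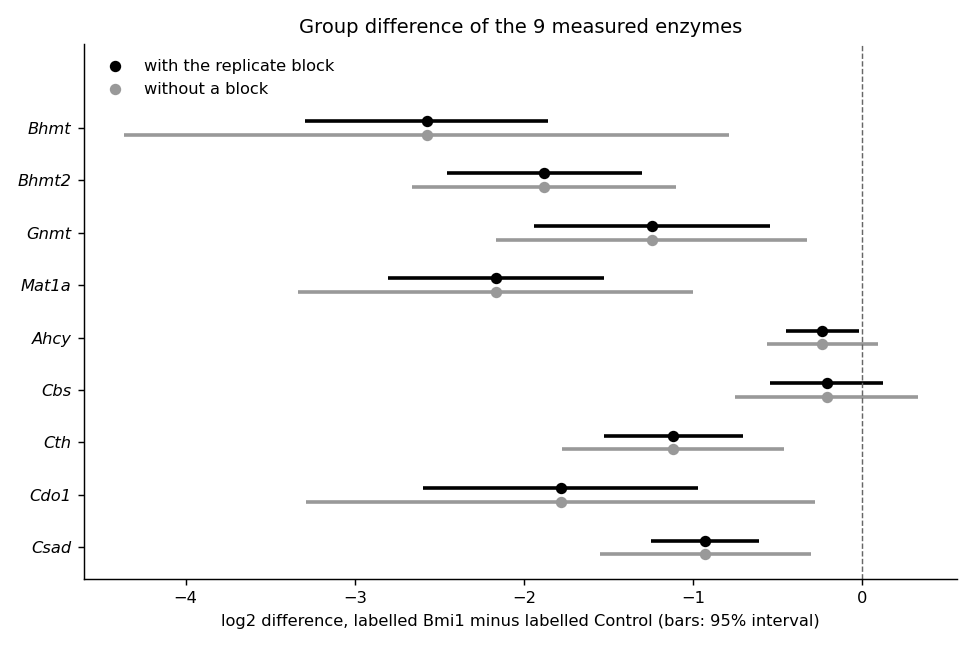
Log2 difference of each enzyme, arrays labelled Bmi1 minus arrays labelled Control, with 95% intervals from limma with the replicate block (black) and without a block (grey). The intervals of Cbs span 0 in both models, and that of Ahcy spans 0 only without the block. Those of the other 7 enzymes lie below 0 in both models before adjustment for multiple tests.

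The plot of differences with their intervals shows how much narrower most intervals are once the replicate number enters the model. The SE of Bhmt was 0.31 with the block and 0.80 without it. The groups were apart for 3 enzymes, Mat1a, Bhmt2 and Csad, all lower, as for 1.8% of all tested genes, with 4.83% apart in either direction.

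The size of the difference varied among pairs. With log2 values centred on each array, 8 of the 9 enzymes were lower in 4 of 4 pairs, as were 15.9% of all tested genes, and Cbs was lower in 3. The median difference of the 9 was -1.45 in pair 1, -0.94 in pair 2, -2.41 in pair 3 and -1.15 in pair 4, while that of all tested genes stayed between -0.05 and -0.01. Pair 3 held the most negative difference for 8 of the 9, all but Csad, as for 26.1% of all genes. Replicate 3 labelled Bmi1 was the lowest of the 8 arrays for 5 of the 9, as for 12.7% of all genes, and replicate 2 labelled Control was the highest for 5, as for 13.4%.

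**Figure D3:**
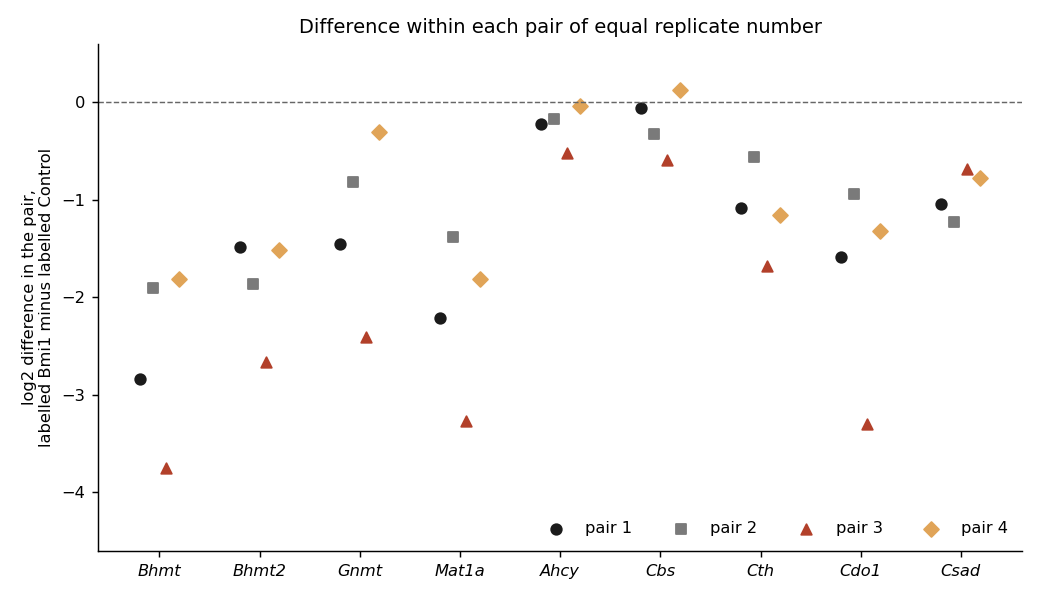
Log2 difference of each enzyme within the 4 pairs of equal replicate number, arrays labelled Bmi1 minus arrays labelled Control, after centring of each array. Triangles for pair 3 are lowest for every enzyme but Csad, and 1 of the 36 points, Cbs in pair 4 at 0.12, lies above 0.

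Sums of markers of other cell types also varied by pair. The sum of the fibroblast and stellate markers was 4025, 7724, 5109 and 3566 in replicates 1 to 4 labelled Bmi1, against 14830, 8449, 5525 and 4809 in replicates 1 to 4 labelled Control. The gap was widest in pair 1. The macrophage and leukocyte sum was 1196, 753, 665 and 2476 in replicates 1 to 4 labelled Bmi1, against 532, 1273, 1462 and 2796 in replicates 1 to 4 labelled Control. This sum was lower under the label Bmi1 in 3 of 4 pairs, by most in pair 3, and higher in pair 1. That pattern was the one of its brightest gene, Cd14. Cd14 read 1025, 476, 399 and 1960 in replicates 1 to 4 labelled Bmi1, against 265, 594, 1183 and 2425 labelled Control. Csf1r, the next brightest, read 80.5, 218, 222 and 425 against 168, 514, 204 and 280, and so was higher in pairs 3 and 4. The mesothelial sum was lower in 4 of 4 pairs. Without pair 1 the median log2 difference of the 9 enzymes was -1.18, beside -1.24 with all pairs. Bhmt (adjusted p = 0.0399), Bhmt2 (0.0362) and Mat1a (0.0419) then passed in limma with the block. So did 187 of the 10916 tested genes, 104 of them lower. Without pair 3 the median was -1.01, and 5 enzymes passed, all but Cth of the 6. Over all tested genes 94 passed without pair 3, 63 of them lower. The group difference did not pass as unequal between the replicate sets for any of the 9 (limma interaction, 0 called of all genes and 2.76% at an unadjusted p under 0.05, with 0 of the 9 among them).

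Other genes of the pathway were taken from 7 lists of 71 genes, of which 59 were tested. With the replicate block 6 of them fell and 0 rose, where 1.96% of all genes fell and 1.36% rose. Without the block 0 passed in limma, with 10 of the 59 lower and 0 higher at an unadjusted p under 0.05. Over all genes 4.33% were lower at that p and 7.81% differed in either direction. The median log2 difference of the 59 was -0.21, nearer to 0 than that of the 9 enzymes.

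In the methyltransferase list, 3 of 9 tested genes fell with the block, Nnmt, As3mt and Inmt. Of these Inmt did not pass with an estimated replicate correlation (adjusted p = 0.144 in limma). Nnmt, the nicotinamide N-methyltransferase of liver and fat, read 24.7, 47.6, 15.0 and 46.0 in the arrays labelled Bmi1, against 106, 151, 94.0 and 123 in the arrays labelled Control, with no overlap. Its log2 difference was -1.89, and limma gave an adjusted p of 0.00970 with the block and 0.0870 without. As3mt, which methylates arsenic, fell by 0.77 on the log2 scale (0.0289 and 0.251), and missed the threshold with the block when any 1 pair was left out (0.0610 to 0.122). Inmt, which methylates indole amines, read 37.8, 104, 11.7 and 12.3 in the arrays labelled Bmi1, against 171, 236, 39.4 and 21.3 in the arrays labelled Control, and fell by 1.41 with the block (0.0306 and 0.827). The call of Inmt was lost without pair 1 (0.0800), pair 2 (0.0997) or pair 3 (0.108). Without the block, its log2 difference was -0.89 without replicate 2 labelled Control and -0.39 with array weights. The DNA methyltransferases Dnmt1, Dnmt3a and Dnmt3b did not pass in either model, with log2 differences of 0.27 for Dnmt1, -0.36 for Dnmt3a and 0.32 for Dnmt3b.

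In the remethylation and folate list, 1 of 15 tested genes fell with the block. Ftcd, a liver enzyme that passes a formimino group from histidine breakdown to folate, read 23.8, 52.1, 10.9 and 51.6 in the arrays labelled Bmi1, against 84.5, 174, 111 and 129.9 in the arrays labelled Control. The groups did not overlap, and the log2 difference was -1.97, for which limma gave an adjusted p of 0.0156 in the blocked model and 0.151 in the other. Methionine synthase, Mtr, which remethylates homocysteine with folate in most cells, averaged 37.5 ± 7.86 in the arrays labelled Bmi1 and 36.5 ± 6.79 in the arrays labelled Control (SD, n = 4 each). Its log2 difference of -0.04 did not pass, and its reductase Mtrr stood at -0.14.

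In the taurine, sulfide and sulfate list, 2 of 13 tested genes fell with the block. Sqor, the mitochondrial sulfide oxidase, read 229, 295, 181 and 265 in the arrays labelled Bmi1, against 351, 534, 519 and 459 in the arrays labelled Control, with no overlap. Its log2 difference was -1.01, with an adjusted p in limma of 0.0199 (block) and 0.109 (no block). With the block it missed the threshold without pair 2 (0.0693), pair 3 (0.0512) or pair 4 (0.05004). Taking the mean of all Sqor probe sets, without the block, gave a smaller log2 difference of -0.60 (limma adjusted p = 0.573). Baat, which joins bile acids to taurine or glycine, read 22.1, 54.2, 4.93 and 27.6 in the arrays labelled Bmi1, against 68.0, 99.3, 27.0 and 75.6 in the arrays labelled Control, and fell by 1.44 (0.0196 and 0.568). It missed the threshold with the block without pair 1 (0.0597), pair 3 (0.0602) or pair 4 (0.0637), and its log2 difference without the block was -0.91 when replicate 3 labelled Bmi1 was left out. Ado, which makes taurine precursors from cysteamine, and the taurine transporter Slc6a6 had log2 differences of -0.09 and -0.23 and did not pass.

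The 4 remaining lists held no gene that passed in either model with all arrays. All 6 tested glutathione genes had a lower mean, with a median of -0.37, and Gsr, the glutathione reductase, came nearest at -0.58 (adjusted p in limma of 0.0606 with the block, 0.611 without it), followed by Gclc, of the first step of glutathione synthesis, at -0.45 (0.138 and 0.531). Without pair 1 both passed with the block (Gsr 0.0453, Gclc 0.0421). In the list of betaine, dimethylglycine and sarcosine, Sardh, the sarcosine dehydrogenase, stood at -0.53 (0.127 and 0.606) and Pipox, another sarcosine oxidase, at -0.36 (0.248 and 0.927). Dmgdh lay under the level filter and was above background in 1 of 4 arrays labelled Bmi1 and in 4 of 4 arrays labelled Control. Its signals were 19.6, 3.46, 1.30 and 2.94 against 18.0, 17.2, 23.1 and 25.7. In the fit over every probe set Dmgdh stood at -1.43 and did not pass (limma adjusted p = 0.172 with the block, 0.634 without). Adk, the adenosine kinase, stood at -0.27 (0.260 and 0.731) and Ahcyl1, a relative of Ahcy, at -0.23 (0.401 and 0.893). The methionine salvage and polyamine list had a median of -0.07, with Adi1 at -0.39 (0.171 and 0.676) and Odc1, of polyamine synthesis, at 0.11 (0.472 and 0.949).

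**Figure D4:**
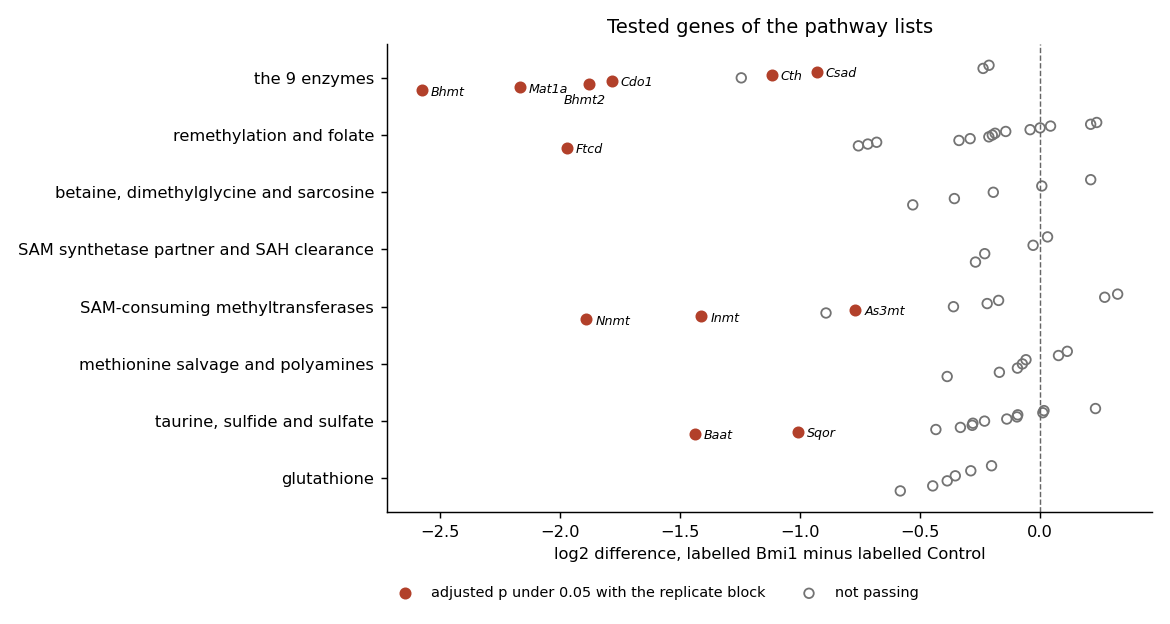
Log2 differences (Bmi1 label minus Control label) of the 9 enzymes and of the 59 tested genes of the pathway lists, 1 row a list, spread vertically within a row for legibility. Filled points passed limma with the replicate block and are named; 6 of the 9 enzymes and 6 of the 59 others are filled, all left of 0.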

How the data were processed

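Probe set values on 8 arrays were used as deposited by the authors: signal intensity on a linear scale, from biotinylated cRNA per the labels' protocols. No source used here names the software behind them. A 2% trimmed mean gave 100.0 on all arrays, so the deposited intensities carry a global scaling. Symbols came from the platform annotation, with 34945 probe sets naming 1 gene, 932 several and 9160 unnamed here.

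A pseudocount of 3.78, the median of all 8 arrays over 4, was added before log2, which understates differences of dim genes. Each gene entered with its single-symbol probe set of highest mean level. Genes from the 40th percentile of level upward were tested, 10916 of 18193, and each array was centred on their median. Before centring, array medians differed by up to 0.21 (log2) over tested genes and 0.70 over all probe sets. Tests were two-sided and used limma 3.58.1 (R 4.3.3, prior variance following intensity), with p-values adjusted after Benjamini and Hochberg over all tested genes and a threshold of 0.05. A second fit took all 45037 probe sets that are not controls, centred on their own median. Background was the 95th percentile of 27 Bacillus control probe sets on each array. The number of arrays limits the precision. The series' design text calls the 4 replicates separate experiments, without saying whether litters differed.

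Deviations from group means correlated at 0.53, 0.49, 0.50 and 0.68 in pairs 1 to 4, and each array correlated best with its own number, so the replicate numbers were taken as pairs. These deviations include the difference between replicate sets (1 and 2 apart from 3 and 4). Of other pathway genes, up to 4 passing in either model are named per list, or else the 2 with the smallest p; Mtr, Mtrr, Dnmt1, Dnmt3a, Dnmt3b, Ado, Slc6a6 and Dmgdh were named after their values were seen. The models were tested on simulated data with replicate effects taken from the blocked fit. Such data cannot show whether the block suits these arrays. Members, lists and tests were chosen with earlier results of these data known. The planned comparison of Mat1a with Mat2a within arrays was not run, since Mat2a was not analysed. Promoter sequences are from RefSeq, GRCm38.p6.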

Additional observations from a re-analysis of the deposited data

Results flagged for a closer look

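Of 64 groups of 4 arrays examined with Dixon's test, 2 held an array far from the other 3, where chance gives about 3, or 1 in 20. At the dimmer Cbs probe set, replicate 1 labelled Control read 60.9 and the other 3 arrays labelled Control 127 to 130.4, a gap of 0.958 of the range. For Cdo1, replicate 2 labelled Control read 318 and the other 3 read 127 to 158, a gap of 0.837 of the range. The partner arrays, replicate 1 labelled Bmi1 for Cbs (62.5) and replicate 2 labelled Bmi1 for Cdo1 (175), were also the lowest and the highest of their group.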

How the results depend on the processing

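All 9 enzymes kept a lower level in the arrays labelled Bmi1 under each of 28 other settings, with log2 differences from -3.09 to -1.69 for Bhmt, -2.60 to -1.73 for Mat1a, -2.04 to -1.12 for Bhmt2, -2.36 to -1.12 for Cdo1, -1.58 to -0.86 for Gnmt, -1.39 to -0.93 for Cth, -1.12 to -0.67 for Csad, -0.35 to -0.10 for Ahcy and -0.40 to -0.07 for Cbs. How many passed depended on the block. Against 0 without it, 6 passed with the replicate block and also with that block and no centring, quantile normalization or a pseudocount of 1 or 32. With the block, centring on all probe sets gave 7, the replicate number as a random effect 7, and leaving out each pair 3 to 5. Over all 10916 tested genes the same settings gave 477, 455 and 94 to 207, beside 363 with the replicate block. Replicate set (1 and 2, 3 and 4) as a block gave 3, namely Bhmt, Bhmt2 and Csad, and a pseudocount of 32 without a block gave 1. Leaving out each array without a block gave 0 throughout. Bhmt, Bhmt2 and Mat1a passed in 11 of 11 settings with the block, Csad in 9, Cth and Cdo1 in 8 each and Gnmt in 3. With every probe set tested, the block gave 4 of 11 against 0, and leaving out each array gave 0. That fit centred on the median of the tested genes, a setting chosen after seeing the data, also gave 0.

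Of the 59 pathway genes, 0 passed without a block and 6 with the replicate block, also with no centring, quantile normalization or a pseudocount of 1. With the block, centring on all probe sets, a pseudocount of 32 and a random effect (which loses Inmt) gave 5 each, and leaving out each pair 2 to 5. Replicate set as a block gave 2, and a pseudocount of 32 without a block gave 1. Over all genes, 18 passed, 12 higher and 6 lower. The replicate block gave 363, the replicate set 198, the random effect 455, no centring 28 (20 higher, 8 lower), centring on all probe sets 13 (6 and 7), quantile normalization 7 (6 and 1), a pseudocount of 32 gave 36 and array weights 37. Leaving out each array gave 0 to 20, and pairs 1 to 4 in turn, with the block, gave 187, 140, 94 and 207. With the block, no centring gave 409 (222 higher, 187 lower), centring on all probe sets 477 (280 and 197), quantile normalization 344, and pseudocounts of 1 and 32 gave 336 and 338. The cause of these shifts was not tested.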
